A study of Mus musculus with 21 samples.

Results

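Enteroendocrine hormones were followed as 10 genes, matched by symbol to rows of the deposited TPM table and by identifier to the count table, out of 37310 genes in all. They were Sst, Sct, Ghrl, Gip, Gcg, Cck, Nts, Pyy, Tac1 and Chga, and all 10 passed the filter on low counts. Their Ensembl identifiers in the files are, in that order, ENSMUSG00000004366.3, ENSMUSG00000038580.6, ENSMUSG00000064177.5, ENSMUSG00000014351.6, ENSMUSG00000000394.9, ENSMUSG00000032532.5, ENSMUSG00000019890.3, ENSMUSG00000017311.8, ENSMUSG00000061762.4 and ENSMUSG00000021194.5. RNA was sequenced in bulk from intestinal crypt cells of Lgr5EGFPcre-ERT2 mice, sorted by flow cytometry for the brightest EGFP fluorescence, in 7 groups of 3 libraries. All mice carried the Lgr5EGFPcre-ERT2 allele, which places EGFP and a tamoxifen-dependent Cre under the Lgr5 gene, were kept on their purified diet from weaning, and were 3 months old. AIN mice ate AIN76A, a purified control diet, and NWD1 and NWD2 mice ate diets of those names, whose makeup the sources used here do not give. NWD1Ca is NWD1 with calcium, labelled as 7.0 mg/g, NWD1VitD is NWD1 with vitamin D, labelled as 2.3 IU/g, and AINlowVitD is AIN with vitamin D labelled as 0.11 IU/g; the labels write these amounts per g body weight. AIN_VdrKO mice ate AIN76A and are labelled as knocked out for the vitamin D receptor gene Vdr, with no cell type or promoter named. NWD1Ca held females only and AIN_VdrKO males only, and the other groups held both sexes. The study asks how diet affects Lgr5 stem cells.

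Enteroendocrine cells are scattered secretory cells of the gut lining that release peptide hormones when nutrients reach them. They descend from Lgr5 stem cells at the crypt base through a precursor stage marked by the transcription factor Neurog3, and each cell makes a changing mix of hormones as it matures. Hormones are stored in dense-core granules, of which chromogranin A (Chga) is a major protein, after prohormone convertases have cut the precursors. In a bulk library of sorted cells, fewer cells of a type and less RNA per cell cannot be told apart.

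The libraries differed in ways that the diets do not define, which bears on most comparisons below. Gene counts per library ran from 19889795 to 115435120. Mitochondrial ribosomal RNA took 0.234% to 0.965% of counts in AIN, NWD1 and NWD2 (set A, 9 libraries), 2.95% to 5.07% in NWD1Ca, NWD1VitD and AINlowVitD (set B, 9 libraries) and 1.38% to 2.80% in AIN_VdrKO. Of 78 spike-in RNAs, which do not come from the mice, a test of their shares among spike-ins, with AIN 2 left out for its 12 spike-in counts, called 44, 51 and 54 in AINlowVitD against AIN, NWD1Ca against NWD1 and NWD1VitD against NWD1, and 0 in each of the 4 comparisons tested within a set. In AIN_VdrKO the test called 7 spike-ins against AIN and 36 against AINlowVitD. In the 3 comparisons between set B and set A, diet and set cannot be told apart. Nor can genotype and library differences in AIN_VdrKO against AIN. Vdr itself had 338 to 746 CPM in AIN and 247 to 482 CPM in the libraries labelled AIN_VdrKO, CPM being counts scaled by library size and TMM factors. Gene-level counts include any exons that a deletion leaves, so they check nothing about the labelled knockout. The Lgr5 stem cell list of 10 genes summed to 1462 to 12620 TPM (counts scaled by gene length and library) in set A, 320 to 1198 TPM in set B and 1890 to 4072 TPM in AIN_VdrKO, and Lgr5 had a count in every library (340 to 6725). In the counts test 0, 3 and 5 of that list were called, all lower, in AINlowVitD against AIN, NWD1Ca against NWD1 and NWD1VitD against NWD1. Its median log2 fold change there was 0.02, -0.76 and -1.08, and 31.3%, 30.5% and 40.5% of all genes were called. On log2(TPM + 1) the median gene shifted by -0.96, -1.15 and -1.38 relative to the counts test in these comparisons. Enterocyte markers, 10 of 10 measured, summed to 3558 to 34430 TPM in set A, 22730 to 72210 TPM in set B and 16410 to 20710 TPM in AIN_VdrKO. Tuft markers (8 of 8) summed to 318 to 2637, 109 to 325 and 182 to 267 TPM, leukocyte markers (10 of 10) to 36.6 to 119.9, 8.45 to 20.04 and 32.6 to 1041 TPM, and stromal markers (10 of 10) to at most 3.31 TPM in any library. Of the tuft markers 0, 4 and 0 were called in the same 3 comparisons, all 4 lower, with medians of -0.25, -1.69 and -0.83. The leukocyte sum in AIN_VdrKO was mostly Cd74, which reached 1029 TPM, while no other leukocyte marker passed 23.7 TPM (Ptprc) in any library. Of 8 leukocyte markers tested 1 was called in AIN_VdrKO against AIN, Cd74, higher by 4.39 (adjusted p = 0.00606). In that comparison 12.5% of all genes were called. Markers of enteric neurons and glia, cells that also make some of these peptides, summed to 4.45 to 22.4 TPM in set A. They came to 2.51 to 3.88 TPM in set B and 2.72 to 3.65 TPM in AIN_VdrKO, with Vip at 0 in all 21 libraries. S100b of that list, at 0.0335 to 0.849 TPM, moved with the hormones: it rose by 3.44, 4.70 and 4.57 on the log2 scale in the 3 comparisons across sets (adjusted p = 0.000603, 0.000302 and 9.44e-05) and had -4.27 in AIN_VdrKO against AINlowVitD (adjusted p = 0.00356). Ret of the same list rose by 2.395 in NWD1VitD against NWD1 (adjusted p = 0.0143). Of the 7 genes of that list tested, 1, 1 and 2 were called in the 3 comparisons across sets, against 31.3%, 30.5% and 40.5% of all genes. The list's median log2 fold change there was -0.06, -0.68 and -0.06. Of 8 pancreatic markers, Ins2 and Prss1 were at 0 in all 21 libraries, while Iapp (4.85 to 27.7 TPM) and Cela1 (10.4 to 38.6 TPM) were in every library. Both were called higher in NWD1Ca and NWD1VitD against NWD1, Iapp by 1.83 and 2.65 (adjusted p = 0.00279 and 7.44e-05) and Cela1 by 1.36 and 1.47 (adjusted p = 0.0185 and 0.00397), and Iapp is also an enteroendocrine product. With the length correction given below Cela1 had 0.562 (adjusted p = 0.179) and 0.736 (adjusted p = 0.04495). In NWD1VitD against NWD1 the sign of Cela1 turned in 2 of 18 alternatives. The part of these cell types in the hormone values was not tested.

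Upstream sequences are shown for 2 hormones that were called in the comparisons below (Sst and Sct) and 2 that were not (Gcg and Chga), so that their control regions can be compared. Each is the 250 bases before the RefSeq gene start on GRCm38.p6, 5′ to 3′ on the gene's strand, with capitals marking TGACGTCA (the full cAMP response element, CRE), its shorter form TGACG on either strand, TATAAA on the gene's strand and CAGATG, an E-box, on either strand. The shorter form lies within the full one.
Sst (chr16:23890845-23891094, minus strand): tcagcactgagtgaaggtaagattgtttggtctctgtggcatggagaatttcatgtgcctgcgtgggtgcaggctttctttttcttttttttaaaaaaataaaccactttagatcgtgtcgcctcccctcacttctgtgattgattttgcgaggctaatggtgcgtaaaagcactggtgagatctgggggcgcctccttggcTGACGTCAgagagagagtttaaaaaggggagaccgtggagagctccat
Sct (chr7:141279134-141279383, minus strand): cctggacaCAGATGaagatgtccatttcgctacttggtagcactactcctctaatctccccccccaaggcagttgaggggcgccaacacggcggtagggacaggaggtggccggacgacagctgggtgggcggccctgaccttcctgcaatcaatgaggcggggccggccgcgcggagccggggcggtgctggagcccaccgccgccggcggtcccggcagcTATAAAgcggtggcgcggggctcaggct
Gcg (chr2:62483654-62483903, minus strand): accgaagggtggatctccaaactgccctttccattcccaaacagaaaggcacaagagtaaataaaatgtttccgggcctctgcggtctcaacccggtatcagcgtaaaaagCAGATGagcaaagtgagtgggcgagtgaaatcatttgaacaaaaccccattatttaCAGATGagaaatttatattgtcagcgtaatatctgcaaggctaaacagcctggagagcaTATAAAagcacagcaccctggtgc
Chga (chr12:102554691-102554940, plus strand): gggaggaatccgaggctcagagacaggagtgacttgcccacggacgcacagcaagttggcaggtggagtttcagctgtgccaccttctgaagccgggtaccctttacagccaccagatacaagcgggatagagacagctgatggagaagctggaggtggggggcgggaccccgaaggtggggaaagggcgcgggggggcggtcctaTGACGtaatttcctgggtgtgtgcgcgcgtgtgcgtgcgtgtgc

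All 10 genes matched the RefSeq table, which gave 14 start windows. Sst held the full CRE, 48 to 41 bases before its start, and was the 1 member with it; 1.55% of all 32851 windows of this length hold it. The shorter form was in 5 members (Sst, Cck, Nts, Tac1 and Chga) and in 17.8% of all windows. TATAAA was in Sct and Gcg, 28 and 24 bases before the start, and in 7.59% of windows. CAGATG was in Sct, Gcg, Cck and Tac1, against 14.4% of windows. AGGTCA, a half-site of nuclear receptors searched on both strands, was in Sct and in windows of Ghrl, against 14% of windows. A match is a description of letters in this window and not a binding site.

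Gip had the highest level per length of the 10. Its median over the 21 libraries was 3079 TPM, against 660 for Sct, 657 for Sst, 525 for Ghrl, 432 for Cck, 197 for Gcg, 187 for Chga, 158 for Tac1, 34.2 for Nts and 32.8 for Pyy. Below Gip this order did not hold within every group: in NWD1 Gcg averaged 426 ± 408 TPM (SD, n = 3), above Sst (308 ± 244), Ghrl (286 ± 210.3) and Cck (283 ± 202), all within its spread, and in AIN Chga (337 ± 103) averaged above Cck (262 ± 148). Sct, Sst and Ghrl had ranges over libraries that overlapped widely (174 to 3378, 165 to 2501 and 63.6 to 2211 TPM), as did Gcg and Chga (81.8 to 886 and 78.5 to 769 TPM). Gip was 22.5% to 61.5% of the summed TPM of the 10 in every library. In the plot of levels by library, 6 genes tend to sit higher in set B and the other 4 do not.

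**Figure D1:**
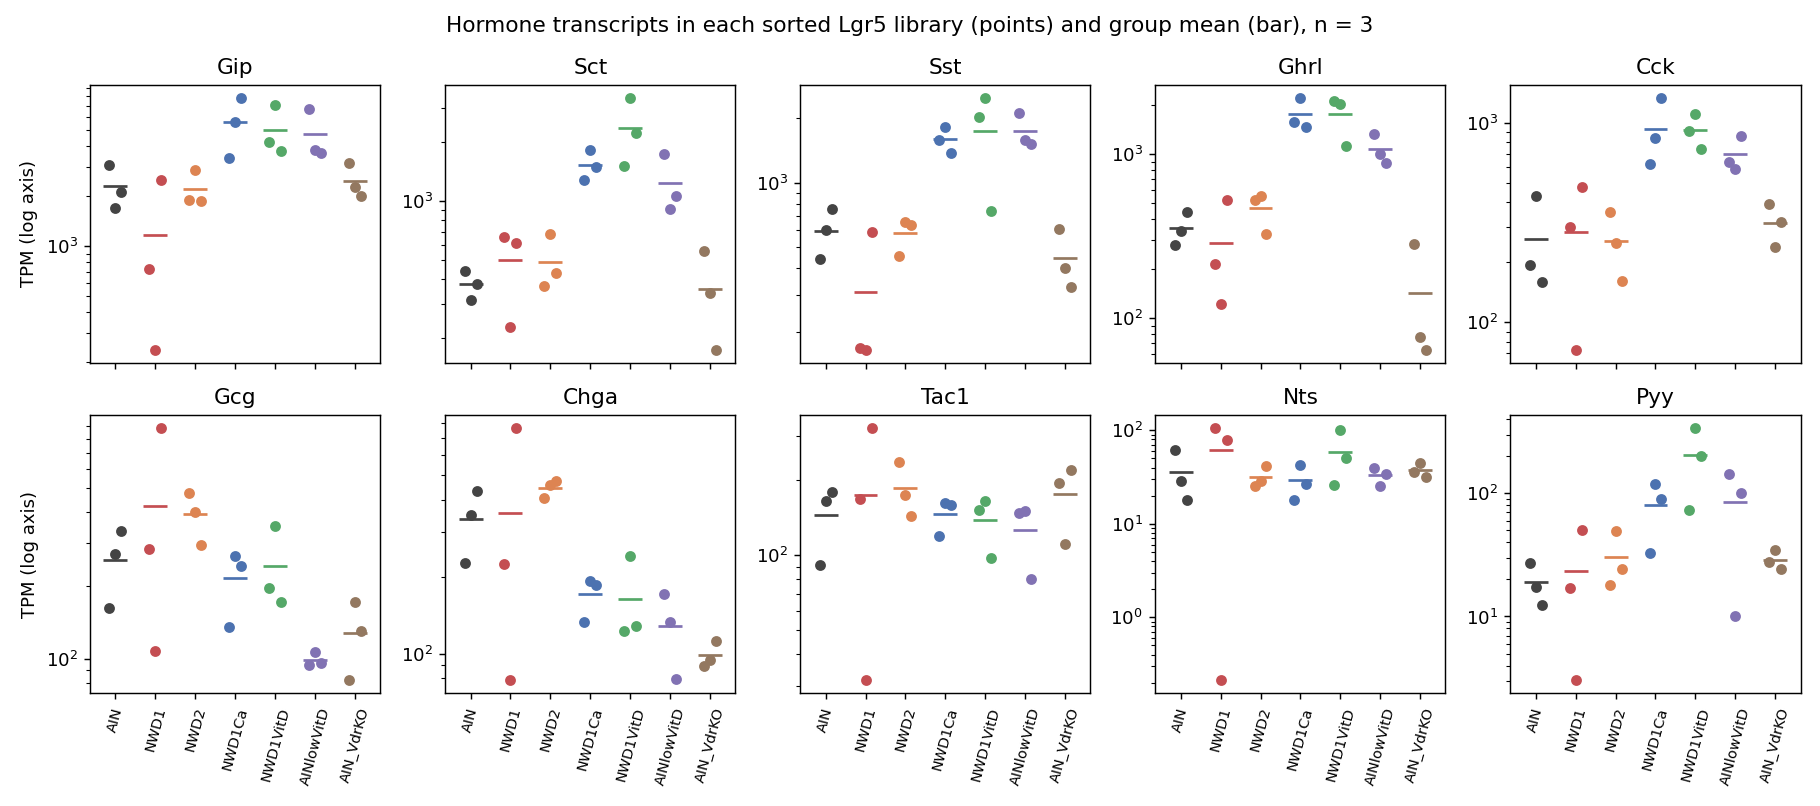
TPM of each hormone gene (log axis) in the 21 libraries, with 1 point per library and a bar for the mean of each group of 3. Sct, Ghrl, Gip and Cck are higher in every NWD1Ca, NWD1VitD and AINlowVitD library than in any AIN, NWD1 or NWD2 library, and Sst in all but NWD1VitD 3, while Gcg and Chga are not.

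Among AIN, NWD1 and NWD2, the groups of set A, no hormone gene passed the test. Sst, the precursor of somatostatin, which inhibits release of other gut hormones, had 443, 599 and 752 TPM in AIN, 170, 165 and 590 TPM in NWD1 and 455, 657 and 636 TPM in NWD2. The first 2 NWD1 libraries were lowest, and the third lay within the range of AIN. Gip, the incretin made by K cells, had 3079, 1704 and 2103 TPM in AIN, 725, 235 and 2512 TPM in NWD1 and 1892, 2856 and 1859 TPM in NWD2, the same 2 NWD1 libraries being lowest. In NWD1 against AIN the log2 fold change was -1.42 ± 0.42 (SE) for Sst (adjusted p = 0.0951, edgeR) and -1.48 ± 0.54 for Gip (adjusted p = 0.177). Ghrl, the precursor of the appetite hormone ghrelin, had -0.76 ± 0.54 (adjusted p = 0.549). For these 3 genes the TMM-scaled CPM values of NWD1 and AIN did not overlap, while their TPM values did. How many of all genes had no such overlap was not counted. Without NWD1 1 and NWD1 2, which leaves 1 NWD1 library taken to vary like the other groups, Sst had -0.82 (adjusted p = 0.491), Gip -0.73 (adjusted p = 0.573) and Ghrl -0.12 (adjusted p = 0.950).

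Of the 10 genes 0 were called in NWD1 against AIN by edgeR, where 0.766% of all 16050 genes tested were called (17 higher and 106 lower, 2436 at an unadjusted p under 0.05). At an unadjusted p under 0.05 there were 2 members, Sst and Gip; DESeq2 called 1, Sst, and limma on log2(TPM + 1) 0. Over all genes limma called 185 higher and 47 lower, with the median gene shifted by 0.40, and the length correction 35 and 74. The median log2 fold change of the 10 was -0.22, against -0.04 over all genes tested. In NWD2 against AIN 0 members were called, 0 at an unadjusted p under 0.05 and 0 by DESeq2 or limma, with 0% of all genes called and 1099 genes at an unadjusted p under 0.05; the adjusted p of the members ran from 0.858 (Gcg) to 0.970 (Sct). In NWD2 against NWD1 Sst had 1.18 ± 0.42 (adjusted p = 0.271) and Gip 1.35 ± 0.54 (adjusted p = 0.358), and 0 members were called in edgeR, DESeq2 or limma, with Sst and Gip at an unadjusted p under 0.05. In that comparison 0.00623% of all genes, 1 gene, were called, and 1717 had an unadjusted p under 0.05. The test for any difference among the 3 groups called 0 members in the same 3 tools (2 at an unadjusted p under 0.05 in edgeR) and 0.125% of all genes. These comparisons share the AIN and NWD1 libraries.

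NWD1 2 held the least hormone RNA of all libraries, 0.0391% of its gene counts over the 10 genes. Nts, the precursor of neurotensin, had 5 counts there (0.211 TPM) and 392 or more in every other library. Summed over the 10 genes the libraries held 2869, 1044 and 6821 TPM in NWD1, against 5008, 4220 and 4813 TPM in AIN and 4767, 6106 and 4393 TPM in NWD2. In TPM the NWD1 libraries were thus spread on both sides of the other groups. In CPM the sums were 1116, 300.2 and 1911 in NWD1, against 1599 to 2154 in AIN and 1312 to 2006 in NWD2. On that scale NWD1 1 and NWD1 2 lay below both groups and NWD1 3 within both. Spike-ins took 24.69% and 20.44% of all counts in NWD1 1 and NWD1 2, and at most 6.48% in any other library. NWD1 2 also had the fewest genes with a count, 17764. The part of these differences in the hormone values was not tested. Enterocyte markers summed to 3558 to 7358 TPM in NWD1 and 19580 to 28720 TPM in AIN, and their part in the NWD1 values was not tested.

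Against the diet they derive from, the 3 groups of set B held more RNA of 6 hormones. Sst had 2116, 1586 and 1518 TPM in AINlowVitD, 1589, 1823 and 1380 TPM in NWD1Ca and 2026, 2501 and 736 TPM in NWD1VitD. All were above every AIN and NWD1 library except that NWD1VitD 3 lay under the highest AIN library. Sst rose from 173 ± 19.1 (SD, n = 3) to 1153 ± 229 CPM in AINlowVitD against AIN, a log2 fold change of 2.71 ± 0.44 (adjusted p = 0.000318). It rose by 3.54 ± 0.47 in NWD1Ca against NWD1 (adjusted p = 8.58e-05), from 62.6 ± 38.9 to 874 ± 121 CPM, and by 4.22 ± 0.47 in NWD1VitD against NWD1 (adjusted p = 9.01e-06), to 1131 ± 566 CPM.

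Ghrl had 280, 341 and 441 TPM in AIN, 213, 122 and 523 TPM in NWD1 and 525, 554 and 325 TPM in NWD2. It had 1333, 995 and 885 TPM in AINlowVitD, 1565, 2211 and 1468 TPM in NWD1Ca and 2107, 2023 and 1127 TPM in NWD1VitD, so that every set B library lay above every set A library. The log2 fold change was 2.77 ± 0.57 in AINlowVitD against AIN (adjusted p = 0.00171), 3.87 ± 0.62 in NWD1Ca against NWD1 (adjusted p = 0.000335) and 4.30 ± 0.61 in NWD1VitD against NWD1 (adjusted p = 6.46e-05).

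Sct, Gip and Gcg are the members of the secretin family of peptides among the 10. Sct, the precursor of secretin, which drives bicarbonate release from the pancreas, had 442, 314 and 379 TPM in AIN, 660, 229 and 611 TPM in NWD1, 1744, 917 and 1060 TPM in AINlowVitD, 1284, 1821 and 1499 TPM in NWD1Ca and 1514, 3378 and 2229 TPM in NWD1VitD. The groups did not overlap in any of the 3 comparisons. Sct rose by 2.87 ± 0.56 in AINlowVitD against AIN (adjusted p = 0.00121), by 2.71 ± 0.61 in NWD1Ca against NWD1 (adjusted p = 0.00328) and by 3.79 ± 0.59 in NWD1VitD against NWD1 (adjusted p = 0.000114). Gip had 6734, 3782 and 3655 TPM in AINlowVitD, 3402, 5614 and 7843 TPM in NWD1Ca and 4240, 7085 and 3739 TPM in NWD1VitD, above every AIN and NWD1 library. Gip rose by 2.19 ± 0.55 (adjusted p = 0.00582), 3.39 ± 0.60 (adjusted p = 0.000607) and 3.96 ± 0.59 (adjusted p = 8.85e-05) in the same order of comparisons.

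Gcg, whose precursor is cut to GLP-1 and GLP-2 in the gut, did not pass in any of the 3. It had 162, 270 and 336 TPM in AIN and 94.8, 107 and 96.1 TPM in AINlowVitD, the latter all below AIN on this scale. In CPM the groups overlapped, at 183 ± 39.1 and 164 ± 5.21 (SD, n = 3), and the log2 fold change was -0.17 ± 0.45 (adjusted p = 0.802). In NWD1VitD against NWD1 it was 0.93 ± 0.45 (adjusted p = 0.107). Gcg had 283, 108 and 886 TPM in NWD1, which spanned the 136 to 265 TPM of NWD1Ca and the 172 to 351 TPM of NWD1VitD. The ratio of Gip to Gcg in TPM was 6.27 to 18.98 in AIN, 2.19 to 2.84 in NWD1, 3.93 to 7.14 in NWD2, 20.2 to 71.0 in set B and 13.3 to 38.5 in AIN_VdrKO, which overlapped both AIN and set B. It sets a gene of 687 bp against one of 1494 bp, and the length trend given below was not removed from it.

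Cck, the precursor of cholecystokinin, which releases bile and pancreatic enzymes, had 194, 432 and 160 TPM in AIN, 300, 72.5 and 476 TPM in NWD1, 639, 591 and 866 TPM in AINlowVitD, 626, 840 and 1343 TPM in NWD1Ca and 916, 1109 and 745 TPM in NWD1VitD. No set B library overlapped AIN or NWD1. Cck rose by 2.61 ± 0.55 (adjusted p = 0.00212), 2.92 ± 0.59 (adjusted p = 0.00160) and 3.34 ± 0.56 (adjusted p = 0.000226) in AINlowVitD against AIN, NWD1Ca against NWD1 and NWD1VitD against NWD1. Pyy, a satiety peptide of the lower gut, was scarcer and more variable, at 27.0, 17.4 and 12.3 TPM in AIN and 143, 10.1 and 100 TPM in AINlowVitD. AINlowVitD 2 thus lay below every AIN library in TPM, although the log2 fold change was 3.46 ± 0.89 (adjusted p = 0.00698). In NWD1 Pyy had 17.1, 3.02 and 50.1 TPM, in NWD1Ca 32.8, 120 and 89.6 TPM and in NWD1VitD 73.4, 340 and 200.4 TPM. It rose by 2.89 ± 0.90 in NWD1Ca (adjusted p = 0.0212) and by 4.93 ± 0.94 in NWD1VitD against NWD1 (adjusted p = 0.000600). Leaving out NWD1 2 or NWD1Ca 2 ended the call in NWD1Ca, at 2.48 (adjusted p = 0.0557) and 2.49 (adjusted p = 0.0661).

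Tac1, the precursor of substance P in serotonin-making cells, had 31.4 to 325 TPM over all libraries. It had 0.93 ± 0.47 in AINlowVitD against AIN (adjusted p = 0.137), where the libraries did not overlap in CPM but did in TPM, and rose by 1.34 ± 0.47 in NWD1VitD against NWD1 (adjusted p = 0.0301), from 63.9 ± 46.9 to 156 ± 32.8 CPM (SD, n = 3). That call was lost without NWD1 2, at 0.82 (adjusted p = 0.0690), and also without each NWD1VitD library, at 1.26 to 1.40 (adjusted p = 0.0511 to 0.0812). Nts had 1.15 ± 0.95 in AINlowVitD against AIN (adjusted p = 0.376), with 61.1, 28.4 and 17.9 TPM in AIN and 40.0, 25.4 and 34.2 TPM in AINlowVitD. Chga had 227, 349 and 433 TPM in AIN and 172, 133 and 79.9 TPM in AINlowVitD, all below AIN on this scale. In CPM the groups overlapped, at 304 ± 52.9 and 266 ± 94.4, with a log2 fold change of -0.31 ± 0.42 (adjusted p = 0.601). In NWD1VitD against NWD1 Chga had 0.71 ± 0.42 (adjusted p = 0.180).

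Counted together, 6 of the 10 rose in AINlowVitD against AIN, where 31.3% of all genes were called, 6 rose in NWD1Ca against NWD1, where 30.5% were called, and 7 rose in NWD1VitD against NWD1, where 40.5% were called. No member fell. The median log2 fold change of the 10 was 2.4, 2.80 and 3.56, against -0.10, -0.04 and -0.03 over all genes tested. The NWD1Ca and NWD1VitD comparisons share the NWD1 libraries. On log2(TPM + 1), where the median gene shifted by -0.96, -1.15 and -1.38 relative to the counts test, limma called 4 members higher in AINlowVitD against AIN (Sst, Sct, Ghrl and Cck) and 2 lower, Gcg at -1.29 (adjusted p = 0.0451) and Chga at -1.41 (adjusted p = 0.0190). Over all genes that scale called 733 higher and 7368 lower, 827 and 8265, and 699 and 9678 in the 3 comparisons, against 2416 and 2614, 2507 and 2396, and 3198 and 3306 in the counts test. A fit without AIN 1, AIN 2 and NWD1 1, which stood apart in earlier results of these data, kept 1 AIN library, AIN 3. Not all of the 6 members passed in it in AINlowVitD against AIN. It took AIN 3 to vary like the other groups, so its calls say little about the AIN group. Goblet markers, 9 of 9 measured, summed to 33900 to 80130 TPM in set A and 75770 to 132400 TPM in set B. Paneth markers, 8 of 8 measured, summed to 11490 to 42260 TPM and 22480 to 130200 TPM. In the 3 comparisons 2, 2 and 3 goblet and 3, 1 and 4 Paneth markers were called higher, and Spdef, a goblet marker, lower in NWD1Ca. With the length correction given below none of these calls stayed in AINlowVitD (adjusted p = 0.208 to 0.556). In NWD1Ca only Spdef stayed (adjusted p = 0.0141). In NWD1VitD only Tff3 and Defa22 stayed (adjusted p = 0.0311 and 0.0155). The part of these markers in the hormone values was not tested.

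Length moved with the hormone values. The 6 genes that rose in all 3 comparisons were the shortest of the 10, with 527 to 848 bp in the lengths implied by the deposited counts and TPM (Ghrl 527, Sct 534, Pyy 575, Sst 599, Gip 687 and Cck 848). Tac1, Nts, Gcg and Chga had 1034, 1176, 1494 and 1882 bp. Over all 943 tested genes of 500 to 900 bp the median log2 fold change was 1.12 in AINlowVitD against AIN, 1.35 in NWD1Ca against NWD1 and 1.24 in NWD1VitD against NWD1. Over 2763 genes of 1000 to 2000 bp it was 0.02, 0.17 and 0.14. A fit that removes each library's trend with gene length called 1 of the 10 in AINlowVitD against AIN, Cck at 1.47 ± 0.48 (adjusted p = 0.0255), while Sst had 0.74 (adjusted p = 0.2495), Ghrl 0.65 (adjusted p = 0.333) and Gip 0.57 (adjusted p = 0.435). In NWD1Ca against NWD1 this fit called 4, Sst at 1.40 (adjusted p = 0.0372), Ghrl at 1.54 (adjusted p = 0.0279), Gip at 1.503 (adjusted p = 0.0411) and Cck at 1.49 (adjusted p = 0.0286), with Sct at 0.64 (adjusted p = 0.257) and Pyy at 0.72 (adjusted p = 0.538). In NWD1VitD against NWD1 it called the 6 genes other than Tac1, Sst at 1.99 (adjusted p = 0.00363), Gip at 2.05 (adjusted p = 0.00639), Cck at 1.96 (adjusted p = 0.00377) and Pyy at 2.73 (adjusted p = 0.0178) among them. The corrected changes were thus smaller by more than 1.5 times on the log2 scale for each of these genes.

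**Figure D2:**
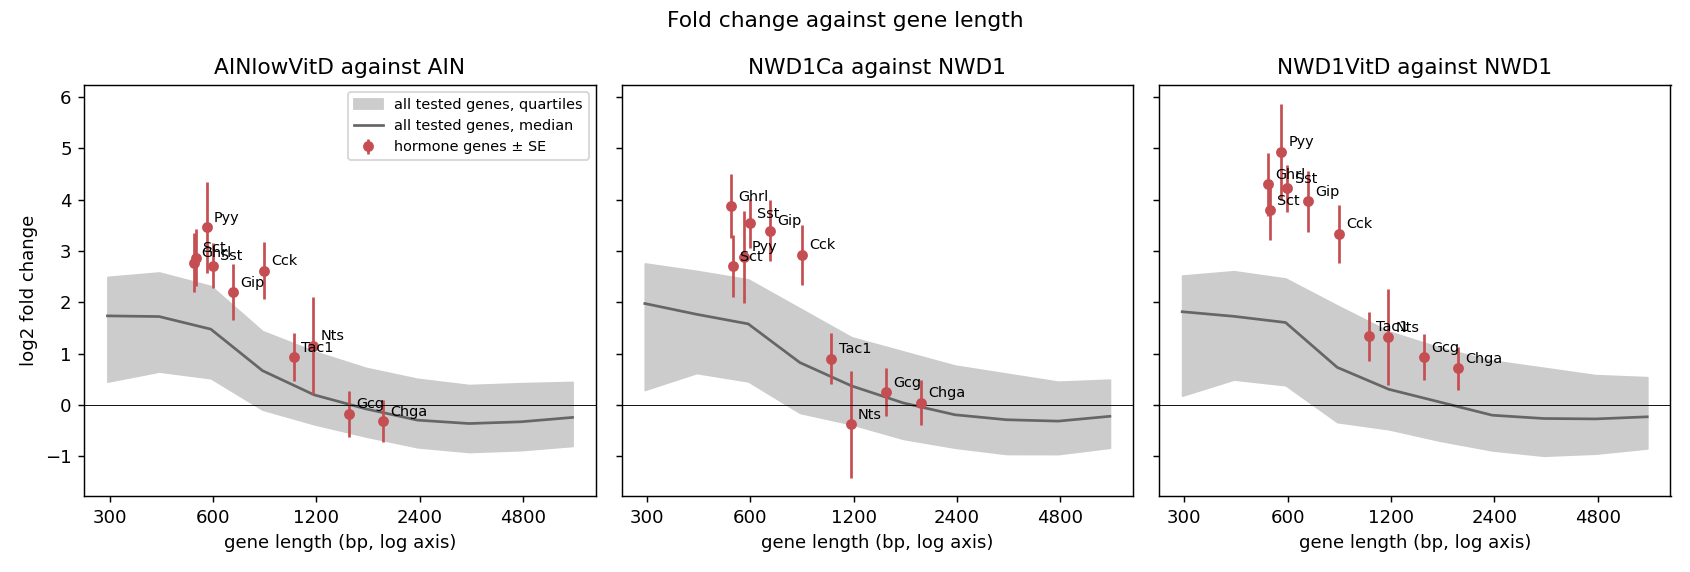
Log2 fold change of the 10 hormone genes (points, ± SE) against gene length in bp (log axis) for the 3 comparisons across sets, with the median (line) and quartiles (grey band) of all tested genes by length. The 6 hormone genes under 900 bp lie above the upper quartile of their length bin, except Gip in AINlowVitD against AIN (2.193 against 2.315), and Gcg and Chga lie within it.

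**Figure D3:**
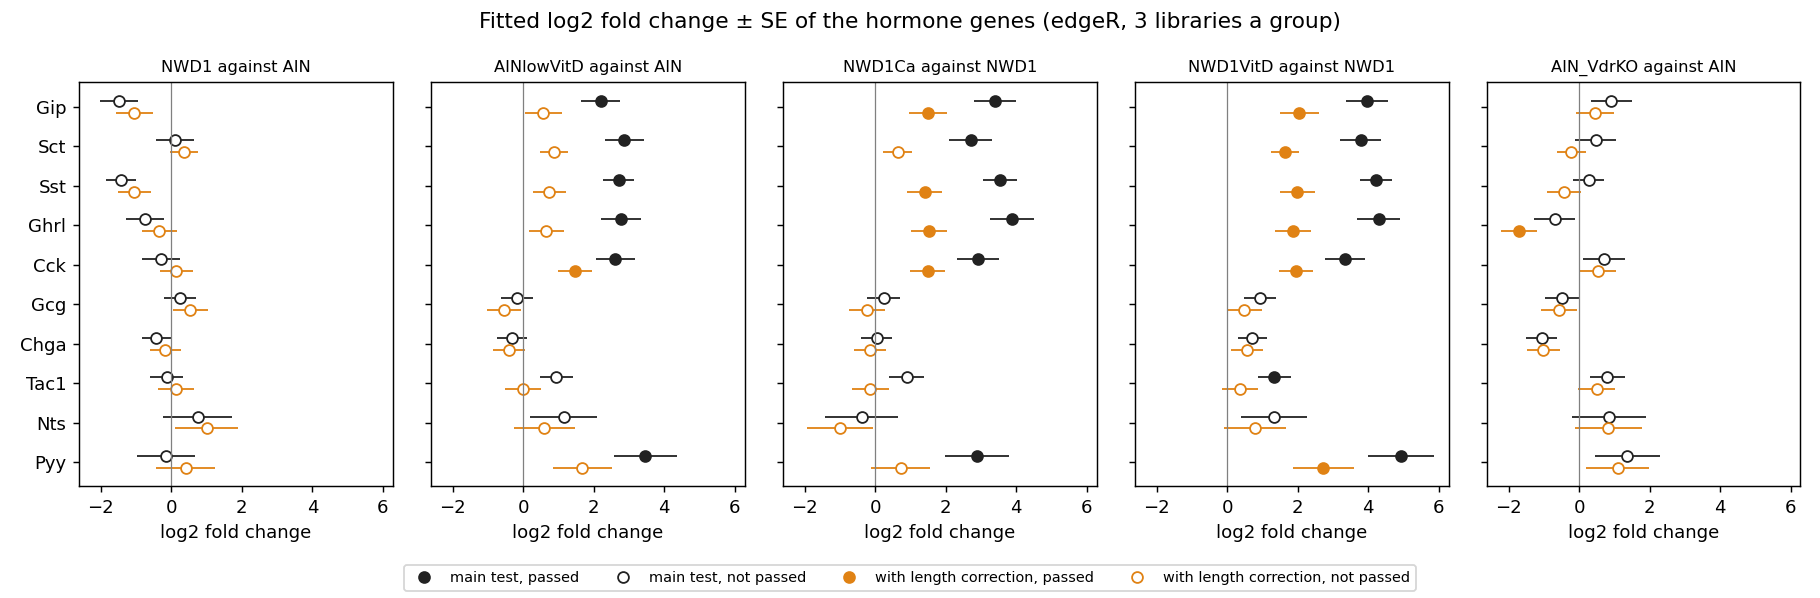
Fitted log2 fold change ± SE of each hormone gene in 5 comparisons, in the main test (black) and with the length correction (orange); filled points passed an adjusted p of 0.05. In AINlowVitD against AIN 6 genes passed in the main test and 1, Cck, with the correction.

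Within set B no hormone gene passed the test. In NWD1VitD against NWD1Ca Pyy had 2.05 ± 0.87 (adjusted p = 1), with 1 library of NWD1VitD (73.4 TPM) within the range of NWD1Ca, and was the 1 member at an unadjusted p under 0.05. Of the 10 genes 0 were called by edgeR, DESeq2 or limma, with 0% of all genes called and 372 at an unadjusted p under 0.05. The test for any difference among AINlowVitD, NWD1Ca and NWD1VitD called 0 members in the same tools (1 at an unadjusted p under 0.05 in edgeR) and 0% of all genes, with 310 genes at an unadjusted p under 0.05.

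In the libraries labelled AIN_VdrKO, Ghrl had 284, 76.6 and 63.6 TPM, the last 2 being the lowest of all 21 libraries. Against AIN (280, 341 and 441 TPM) the log2 fold change was -0.69 ± 0.58 (adjusted p = 0.467), and the first AIN_VdrKO library overlapped AIN. Without AIN_VdrKO 1 it was -2.04 ± 0.46 (adjusted p = 0.00829), and with the length correction -1.70 ± 0.51 (adjusted p = 0.0332), so the call depended on 1 library and on the correction. Chga had 89.9, 94.7 and 112 TPM, all below the 227 to 433 TPM of AIN. It had -1.06 ± 0.44 (adjusted p = 0.121) in the main test and passed without the sex term, at -1.50 (adjusted p = 0.0386), in a design where AIN_VdrKO held males only; without AIN 3, the one AIN male, it had -0.44 (adjusted p = 0.703). Gip had 3151, 2269 and 1992 TPM and Sst 606, 398 and 327 TPM, both overlapping AIN. Of the 10 genes 0 were called against AIN by edgeR, DESeq2 or limma, 1 at an unadjusted p under 0.05 (Chga), where 12.5% of all genes were called and 4395 had an unadjusted p under 0.05; the median of the 10 was 0.60, against -0.02 over all genes. Of all genes, 1194 were called higher and 817 lower in counts, and 642 and 708 by limma with TPM, where the median gene shifted by -0.23. Mitochondrial ribosomal RNA took 1.38% to 2.80% of counts in AIN_VdrKO and 0.234% to 0.901% in AIN, and 7 of 78 spike-ins (8.97%) were called. Genotype and these library differences cannot be told apart in this comparison.

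Against AINlowVitD, 3 of the 10 fell in the libraries labelled AIN_VdrKO, where 3.07% of all genes were called. Of the 78 spike-ins 36 (46.2%) were called as well and mitochondrial ribosomal RNA was lower in AIN_VdrKO, so genotype, diet and library set cannot be told apart here. Sst had 1153 ± 229 CPM in AINlowVitD and 165 ± 92.1 CPM in AIN_VdrKO (SD, n = 3), a log2 fold change of -2.44 ± 0.45 (adjusted p = 0.00811). Sct, with 557, 340 and 174 TPM in AIN_VdrKO, fell by 2.397 ± 0.587 (adjusted p = 0.0312), and Ghrl fell by 3.47 ± 0.62 (adjusted p = 0.00621). Cck had -1.89 ± 0.56 (adjusted p = 0.0692) and Gip -1.28 ± 0.57 (adjusted p = 0.217). The libraries of the 2 groups did not overlap in CPM or TPM for any of these 5 genes. Those of Gcg and Chga did not overlap in CPM but did in TPM. The share of all genes without overlap was not counted. The median of the 10 was -1.58, against 0.13 over all genes. Over all genes the counts test called 110 higher and 382 lower, limma on log2(TPM + 1), with a shift of 0.74, 4830 and 325, and the length correction 284 and 333. Fitted on these 2 groups alone, 0 of the 10 were called (Sst -2.72, adjusted p = 0.225) and 4 genes in all; without AINlowVitD 3 only Ghrl was called, 1 member, and with the length correction only Ghrl, at -2.35 (adjusted p = 0.0221). This comparison and that of AINlowVitD with AIN share the AINlowVitD libraries.

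The mix of hormones also differed between libraries. Gcg was 3.24% to 12.99% of the summed TPM of the 10 in set A, 0.721% to 2.03% in set B and 1.51% to 4.52% in AIN_VdrKO. Chga was 4.54% to 11.3%, 0.953% to 1.60% and 1.66% to 3.31%. Ghrl was 1.88% to 5.24% in AIN_VdrKO and 5.59% or more elsewhere. These shares were chosen after the values were seen and carry no test, and Gcg and Chga are the longest of the 10; the part of the length trend in them was not tested.

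**Figure D4:**
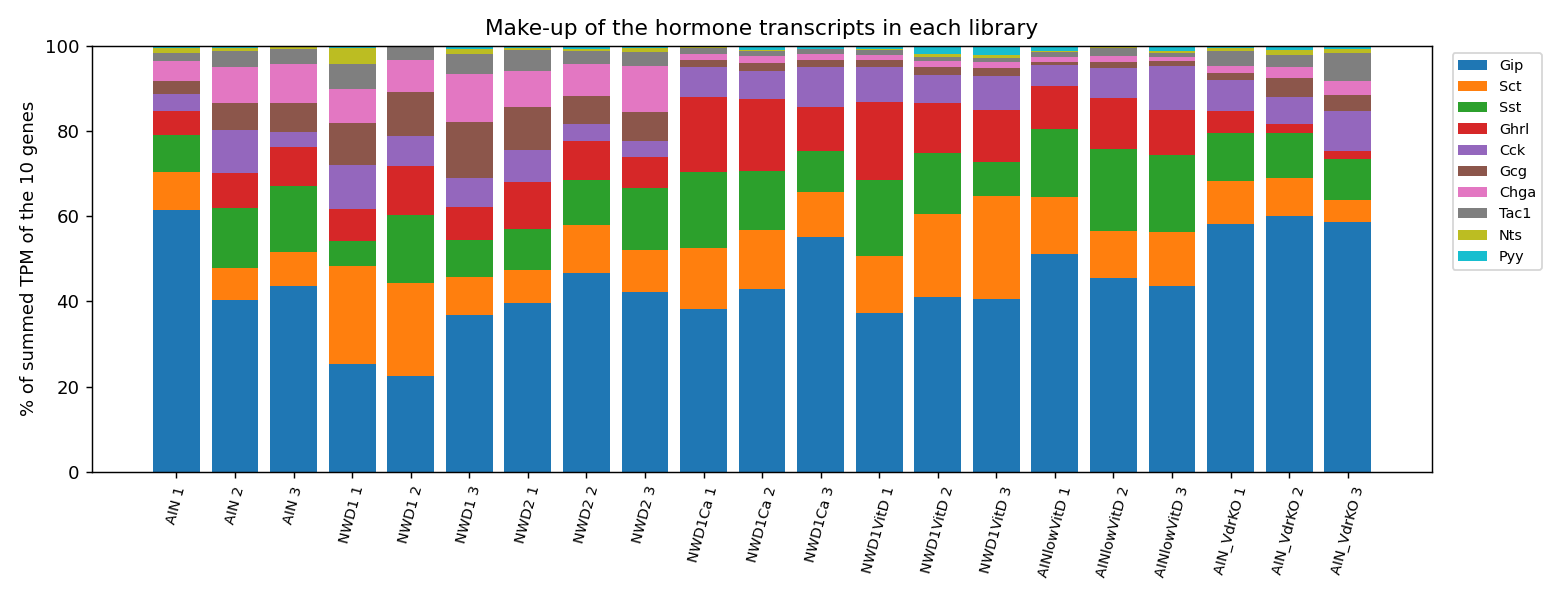
Share of each hormone gene in the summed TPM of the 10 in each of the 21 libraries (stacked bars, percent). Gip is the largest share in every library, and Gcg and Chga together are thin in NWD1Ca, NWD1VitD and AINlowVitD.

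Ghrl and Sst kept a narrow ratio in some groups. Ghrl to Sst in TPM was 0.569 to 0.633 in AIN and 0.583 to 0.630 in AINlowVitD, although the level of each gene differed several-fold between these groups. The ratio was 0.741 to 1.25 in NWD1, 0.511 to 1.15 in NWD2, 0.985 to 1.21 in NWD1Ca and 0.809 to 1.53 in NWD1VitD. In AIN_VdrKO it was 0.192 to 0.469, below every other library. The 2 genes are of like length (527 and 599 bp), and the ratio was chosen after the values were seen, so it is given with no test.

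**Figure D5:**
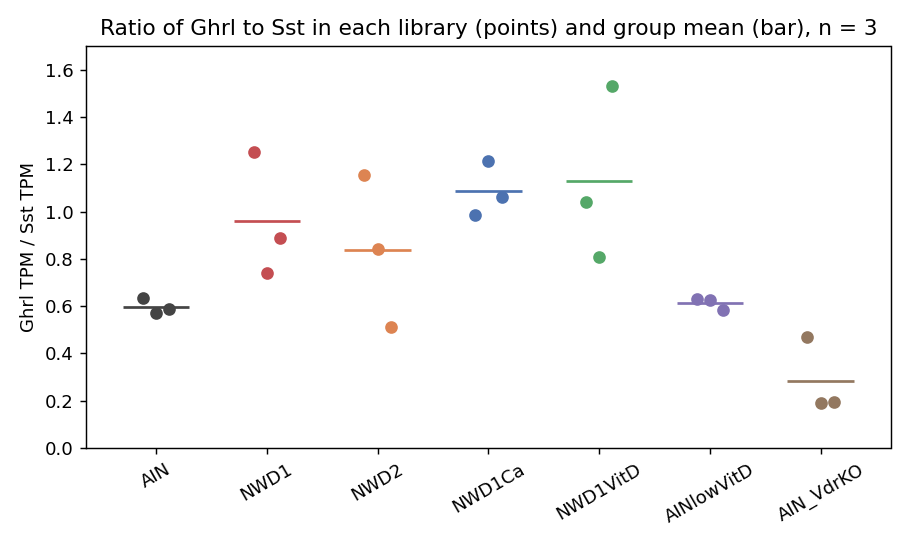
Ratio of Ghrl TPM to Sst TPM in each library (points), with a bar for the mean of each group of 3. AIN and AINlowVitD lie close together near 0.6, and the 3 AIN_VdrKO libraries lie lowest, at 0.192 to 0.469.

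Within groups, the 10 genes varied together. Over the 45 pairs, the correlation of log2 CPM deviations from the group mean over 21 libraries ran from 0.39 to 0.86 with a median of 0.67, and without NWD1 2 the median was 0.40 (-0.15 to 0.77). The points share library, depth and sorted population. Among 9323 other genes, those that followed Chga most closely were Afp (0.95), Tph1 (0.94), which makes serotonin, and Prnp (0.94). For Gcg they were Scg2 (0.92), Scgn (0.91) and Mtap1b (0.89), which had 0.73 to 0.80 without NWD1 2. Sst and Ghrl shared Ucn3, a peptide of the CRF family (0.84 and 0.87). Sct was followed by Gng13 (0.89), S100a13 (0.88) and Myl7 (0.86), which stayed at 0.86 to 0.92 without NWD1 2, and Gip by Rbp4, Ptprn2 (both 0.88) and Resp18 (0.87).

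Of 17 genes that process and store prohormones 3 rose in AINlowVitD against AIN, 5 in NWD1Ca and 6 in NWD1VitD against NWD1, and none fell. With 31.3%, 30.5% and 40.5% of all genes called there in either direction, these counts are no result about the list. Pam, which amidates peptide ends, rose by 2.66 ± 0.46 (adjusted p = 0.000550), 2.51 ± 0.51 (adjusted p = 0.00160) and 3.29 ± 0.47 (adjusted p = 6.51e-05). Pcsk1n, an inhibitor of prohormone convertase, rose by 3.04 ± 0.80, 3.54 ± 0.88 and 4.36 ± 0.85 (adjusted p = 0.00809, 0.00610 and 0.000722). Both are longer than the hormones (7999 and 2193 bp), and with the length correction they had 2.60 and 3.23 in AINlowVitD against AIN (adjusted p = 0.00132 and 0.00572). Pam was also the 1 gene of the list called in AIN_VdrKO against AIN, at 3.03 ± 0.53 (adjusted p = 0.00114), where 12.5% of all genes were called. The list's median was 0.39, 0.47 and 1.03 in the 3 comparisons across sets.

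Of 9 other enteroendocrine products tested, 4, 5 and 6 rose in those comparisons and none fell, where 31.3%, 30.5% and 40.5% of all genes were called. With the length correction the 4 calls in AINlowVitD against AIN were lost (Cartpt, Gast, Iapp and Nmb, adjusted p = 0.0635, 0.280, 0.767 and 0.802), as were Iapp, Gast and Nmb in NWD1Ca against NWD1 (adjusted p = 0.208, 0.363 and 0.242) and Gast and Nmb in NWD1VitD against NWD1 (adjusted p = 0.0627 and 0.449). Iapp in AINlowVitD against AIN also had the opposite sign in 2 of 17 alternatives. Cartpt, a satiety peptide of 874 bp, rose by 3.04 ± 0.68 (adjusted p = 0.00315), 4.92 ± 0.83 (adjusted p = 0.000475) and 6.42 ± 0.85 (adjusted p = 3.83e-05), and with the length correction had 1.83, 3.46 and 4.91. Cartpt was near the floor in the groups it rose from, with a mean of 0.711 CPM in AIN and 0.0884 CPM in NWD1. The NWD1 libraries had 0, 0 and 11 counts of it. Gast, the precursor of gastrin, fell by 3.98 ± 1.02 on the log2 scale in AIN_VdrKO against AINlowVitD (adjusted p = 0.0364), from a mean of 2.42 CPM to 0.0860 CPM. It had 3, 2 and 7 counts in the AIN_VdrKO libraries. Iapp, the amyloid peptide amylin, fell by 1.43 ± 0.39 (adjusted p = 0.0496) in the same comparison. Both of these calls were lost with the length correction (adjusted p = 0.237 and 0.383).

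Of 18 transcription factors of the enteroendocrine lineage, 5 rose in AINlowVitD against AIN, 5 rose and 2 fell in NWD1Ca against NWD1, 8 rose and 2 fell in NWD1VitD against NWD1, and 5 rose in AIN_VdrKO against AIN. Of all genes 31.3%, 30.5%, 40.5% and 12.5% were called in these comparisons, and the counts in AINlowVitD and NWD1Ca are at or near that share. Fev, a factor of hormone-making precursors, rose by 2.77 ± 0.63 (adjusted p = 0.00334), 2.84 ± 0.71 (adjusted p = 0.00635) and 3.53 ± 0.65 (adjusted p = 0.000456) in the comparisons across sets. Insm1, which acts after Neurog3 in the lineage, rose by 1.58 ± 0.42 (adjusted p = 0.00807) in AINlowVitD against AIN and by 2.11 ± 0.47 (adjusted p = 0.00612) in AIN_VdrKO against AIN. It also rose by 1.59 ± 0.46 (adjusted p = 0.0149) in NWD1Ca and by 2.075 ± 0.42 (adjusted p = 0.000925) in NWD1VitD against NWD1. Neurog3 itself fell by 1.65 ± 0.46 on the log2 scale in NWD1Ca against NWD1 (adjusted p = 0.0115). These genes are 1540 to 3097 bp long, and each of these calls passed with the length correction.

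Nutrient sensors of these cells, with 12 of 14 tested, had 0 calls in AINlowVitD against AIN, 2 falls in NWD1Ca against NWD1 and 1 in NWD1VitD against NWD1, namely Lpar5 in both (-1.35 ± 0.35, adjusted p = 0.00716, and -1.09 ± 0.32, adjusted p = 0.0115) and Ffar3 in the former (-2.12 ± 0.65, adjusted p = 0.0200). These counts are below the 31.3%, 30.5% and 40.5% of all genes called. Casr, the calcium-sensing receptor, had 1 to 37 counts per library. Of 22 receptors of the 10 hormones 8 passed the filter on low counts, and 1 fell in each of the NWD1Ca and NWD1VitD comparisons (Gipr and Npy2r), against the same 30.5% and 40.5% of all genes. Summed over the 22, receptor RNA came to 1.33 to 24.1 TPM per library, and the 10 hormones to 1044 to 17290 TPM.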

How the data were processed

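The members and the 15 gene lists were chosen with earlier results of these data known. SMART-Seq v4 cDNA and Nextera XT paired-end libraries, per the labels' protocols, carry no strand. The authors deposited read counts and TPM values. The submitters' processing notes list STAR 2.4.2a, HTSeq 0.6.1, edgeR and build mm9 without saying which step each served. Within every library the deposited TPM equal count over a fixed gene length, rescaled, and lengths here came from that relation. The main test was two-sided, edgeR's (4.0.16, under R 4.3.3) quasi-likelihood test of the counts over all 21 libraries with group and sex as terms, TMM scaling and filterByExpr (16050 genes). Benjamini-Hochberg adjustment ran over all genes tested, with a threshold of 0.05, and library sizes were taken without the spike-ins. Nothing says how libraries of a group relate to separate mice beyond the labels, so p-values measure only the spread between these libraries, which may be technical. Alternatives were DESeq2 1.42.0, its size factors in edgeR, limma 3.58.1 on log2(TPM + 1) and log2(TPM + 0.1), no filter, no sex term, a replicate block, only the groups compared, leaving out libraries, a loess correction (span 0.3) for gene length and, chosen after seeing the data, one for length and GC content. Companion genes named were taken from the up to 4 per list and comparison with the smallest adjusted p among those past the threshold. Not all of these are named. Neighbours are the 3 genes with the highest correlation to a member, from genes whose log2 CPM averaged 2 or more. Promoters came from RefSeq on GRCm38.p6. The test was checked on simulated data.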

Additional observations from a re-analysis of the deposited data

How the results depend on the processing

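No call of a hormone gene turned direction under any alternative tried: over 22 called gene and comparison pairs and 384 alternative values, 335 stayed past the threshold, 49 no longer passed and 0 reversed. With no filter on low counts, members called became 2 in NWD1 against AIN (Sst and Gip), 3 in NWD2 against NWD1 (Sst, Gip and Nts), 2 in AIN_VdrKO against AIN (Pyy and Chga), 6 in AIN_VdrKO against AINlowVitD, 2 in NWD1VitD against NWD1Ca (Nts and Pyy), 2 in the test among AIN, NWD1 and NWD2, and 2 in that among AINlowVitD, NWD1Ca and NWD1VitD. The correction for gene length, and that for length and GC content, each left 1 in AINlowVitD against AIN (Cck), 1 in AIN_VdrKO against AIN (Ghrl) and 1 in AIN_VdrKO against AINlowVitD (Ghrl). DESeq2 called 1 in NWD1 against AIN (Sst). The members called also changed in AINlowVitD against AIN and AIN_VdrKO against AIN without AIN 1, AIN 2 and NWD1 1, a fit that leaves 1 AIN library. Without the sex term AIN_VdrKO against AIN had 1 (Chga). On only the groups compared AIN_VdrKO against AINlowVitD had 0. Leaving out 1 library at a time gave 0 to 1 in AIN_VdrKO against AIN and 1 to 4 in AIN_VdrKO against AINlowVitD; the fit pools the spread over groups. The causes were not tested. In genes that did not pass, leaving out 1 library at a time gave -0.39 to 0.14 for Gcg and -0.46 to 0.14 for Chga in AINlowVitD against AIN, above 0 without AIN 3. For Tac1 in that comparison the sign turned on log2(TPM + 1) (-0.20), log2(TPM + 0.1) (-0.20), with the length correction (-0.013) and with the length and GC correction (-0.027). In NWD1VitD against NWD1 it turned on those TPM scales for Gcg (-0.40 on both) and Chga (-0.61 on both), and for Chga without NWD1 1 and NWD1 2 (-0.11).

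Samples that share a replicate number deviated together in some pairs only. Over 27 such pairs the correlation of deviations ran from -0.19 to 0.41, with 8 over 0.1 and no comparison with all its pairs over 0.1. Replicate 3 had 0.41, 0.13 and 0.31 in NWD1 against AIN, NWD2 against AIN and NWD2 against NWD1. With the replicate number as a block, the members called were 6 in AINlowVitD against AIN, 6 in NWD1Ca against NWD1, 7 in NWD1VitD against NWD1, 3 in AIN_VdrKO against AINlowVitD and 0 in the other comparisons, as in the main test.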

Other observations

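Ppy, which codes for pancreatic polypeptide, of the same family as PYY, was not among the 10 genes and was looked at after its values were seen. It had 377 counts (23.7 TPM) in NWD1VitD 2, 1 count in NWD1 3 and 0 counts in the other 19 libraries. NWD1VitD 2 was also the library with the highest Pyy, at 340 TPM.

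Chgb, which codes for the granule protein chromogranin B and was also chosen after its values were seen, had 256 to 768 TPM in AIN and 174 to 296 TPM in the libraries labelled AIN_VdrKO. It had 178 to 1560 TPM in NWD1, the widest range of any group.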
